A study of Mus musculus with 16 samples.

Results

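The response difference between the genotypes is the change that the oncogene AML1-ETO9a brought about in Booreana bone marrow cells minus the change it brought about in wild-type cells. It was taken over all 16 arrays of the series, which fall into 4 groups of 4, as (Booreana AML1-ETO9a minus Booreana control) minus (wild-type AML1-ETO9a minus wild-type control), with arrays of equal replicate number paired within a genotype. All groups were primary cultures of c-Kit-enriched bone marrow from 8-week-old mice, either Booreana, a strain with mutant c-Myb, or age-matched C57Bl6 (wild-type). The cells received either the control retrovirus MSCV-I-GFP or MSCV-AML1-ETO9a-I-GFP and were grown in IL-3, IL-6 and SCF. At 48 hours, GFP-positive, c-Kit-positive cells were sorted and their RNA was hybridised to Illumina mouse BeadChips. The controls therefore also carried a retrovirus with GFP, were sorted in the same way and received the same cytokines, and AML1-ETO9a was expressed from a retroviral vector rather than from its own locus. The labels name 4 Booreana mice but do not say that each replicate is a separate mouse, so the p-values measure the spread between these samples, which may be partly technical. In bulk RNA, fewer cells of a type and less RNA per cell cannot be told apart.

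As background, c-Myb is a transcription factor of haematopoietic progenitors that activates many genes through the co-activator p300. The Booreana mutation lies in its transactivation domain and weakens the contact with p300. AML1-ETO joins the DNA-binding part of RUNX1 to the corepressor RUNX1T1 (ETO), and AML1-ETO9a is a shorter splice form that causes leukaemia in mice. It is known both to repress and to activate RUNX1 target genes, and p300 can act as a co-factor of its activating function. The series title names the interaction of c-Myb with p300 as the subject of the study. The comparison asks which genes react to the oncogene in another way when c-Myb is mutant.

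Between 11122 and 12002 of the 25697 probes were detected (detection p below 0.05) on 15 arrays, and 10158 on Booreana control replicate 2. That array also had the lowest mean correlation with the others, 0.845 against 0.931 to 0.955, and the differences of all named calls were computed with and without it. Cd34, a progenitor marker, was detected on 16 of 16 arrays, and no probe was named Kit. Of the mouse Runx1t1 probes, the tested one was detected on 4 of 4 Booreana AML1-ETO9a arrays and the other on 2 of 4, and both on 0 of 4 wild-type AML1-ETO9a arrays. Whether either matches the transgene is not known here, so they check no label.

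The response differed between genotypes for 37 of 12760 tested probes (0.29%), in a paired limma fit with Benjamini-Hochberg adjustment at a threshold of 0.05. Of these, 19 (0.149%) had a more positive response in Booreana cells and 18 (0.141%) a more negative one, and 1728 probes had an unadjusted p below 0.05. Taking the brightest probe of each gene, 27 of 8833 genes (0.306%) passed, 13 higher (0.147%) and 14 lower (0.158%). By comparison, 959 probes (7.52%) passed for the wild-type response and 454 (3.56%) for the Booreana response, which share no array. The responses ran the same way in most of these: 486 of 555 probes (4.35% of those tested) that rose in wild-type cells had a positive Booreana response, and 332 of 404 (3.17%) that fell had a negative one. Of 238 probes past the threshold in both genotypes, 236 had the same direction, and Pearson's r over all 12760 probes, as a description, was 0.337. The pair differences of the genotypes did not overlap for any of the 37, which was true of 8.71% of all tested probes. The plot of both responses shows that most of the 37 probes lay near 0 on the Booreana axis and away from 0 on the wild-type axis.

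**Figure D1:**
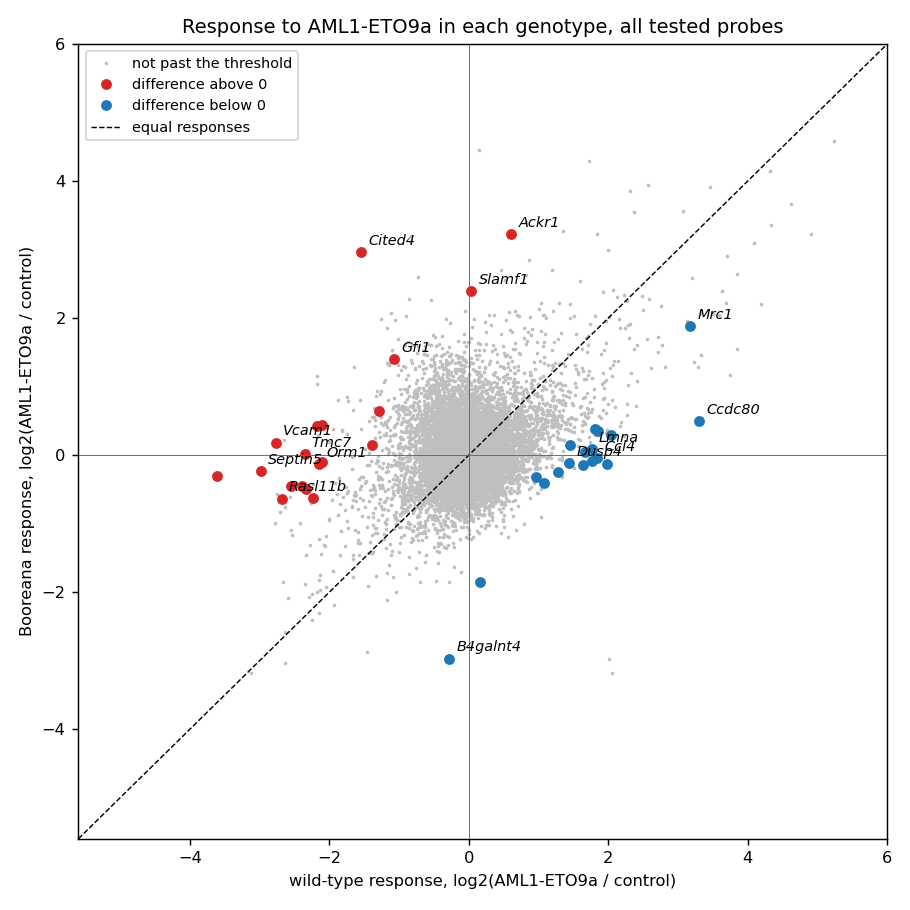
Response to AML1-ETO9a as a log2 ratio in wild-type cells (x axis) and in Booreana cells (y axis), 1 point per probe. Red and blue points are the 37 probes whose difference passed the threshold; Cited4 and Gfi1 are the named genes in the upper left that moved in opposite directions, and the dashed line marks equal responses.

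Among the 27 genes, 2 fell in wild-type cells and rose in Booreana cells, 9 fell in wild-type cells with no call in Booreana cells, and 2 rose in Booreana cells alone by the calls. In the other direction, 11 rose in wild-type cells with no call in Booreana cells, 2 fell in Booreana cells with no call in wild-type cells, and Mrc1 rose in both but less in Booreana cells. Each response is part of the difference, so these classes describe the 27 genes and are no separate test. Leaving out the pair of Booreana control replicate 2 gave 60 calls (0.47%), 36 higher (0.282%) and 24 lower (0.188%), 36 of them among the 37. The direction of all 27 genes stayed the same in each of the 20 alternative settings run. In many of these it could not change. With a pair left out it follows from pair differences that do not overlap, and other blocks, filters or variance models on all arrays keep the same estimates. The number of calls was not stable. It was 11 (0.0862%) without the pairing, of which 10 were among the 37, and 14 (0.11%) without the pairing and that array. Without a wild-type pair it was 5, 7, 5 and 6 for replicates 1 to 4, and without Booreana pairs 1, 3 and 4 it was 1, 4 and 6. The genes called in the paired and unpaired fits, each with and without Booreana control replicate 2, were Cited4, Vcam1, Gfi1, Tmc7, Orm1, Slamf1, Ackr1 and Lmna, with further probes of Gca and Dmwd. Most of these genes were sensitive to other pairs. In the 8 settings with 1 pair left out, Cited4, Vcam1 and Tmc7 each lost their call in 1. Orm1 and Slamf1 lost it in 6, and Gfi1, Ackr1 and Lmna in 7.

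Cited4 and Gfi1 were the named genes that moved in opposite directions. Cited4 encodes a transcriptional co-activator that binds CBP and p300. Its normalized log2 intensity was 8.96, 8.28, 7.82 and 8.39 in wild-type control replicates 1 to 4 and 7.88, 6.71, 6.87 and 5.83 with AML1-ETO9a. In Booreana cells it was 4.91, 6.02, 5.74 and 5.22 with the control vector and 7.90, 8.93, 7.97 and 8.93 with AML1-ETO9a. The Booreana control arrays all lay below the AML1-ETO9a arrays of that genotype and had the lowest group mean, although wild-type AML1-ETO9a replicate 4 fell within their range. The wild-type groups overlapped slightly. Cited4 fell by 1.54 ± 0.29 (SE, n = 4 pairs, log2 scale, limma adjusted p = 0.0121) in wild-type cells and rose by 2.96 ± 0.29 (limma adjusted p = 0.00106) in Booreana cells. The difference was 4.50 ± 0.42, a 22.7-fold ratio of responses (limma adjusted p = 0.00749), and 4.52 ± 0.45 without Booreana control replicate 2. The probe was detected on 1 of 4 Booreana control arrays, so the size of the Booreana rise rests partly on background, and the difference was 1.41 in the authors' processed values.

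Gfi1 encodes a transcriptional repressor needed for neutrophil development. Its log2 intensity was 11.24, 11.001, 11.32 and 11.09 in wild-type control cells and 10.36, 10.39, 9.71 and 9.90 with AML1-ETO9a. In Booreana cells it was 6.69, 7.69, 7.32 and 7.15 with the control vector and 9.08, 8.48, 8.54 and 8.35 with AML1-ETO9a. None of the 4 groups overlapped another, and the probe was detected on all 16 arrays. Gfi1 fell by 1.07 ± 0.26 in wild-type cells and rose by 1.40 ± 0.26 in Booreana cells (limma adjusted p = 0.0351 and 0.0213). Even after that rise, the Booreana mean of 8.61 ± 0.32 (SD, n = 4) stood below the wild-type AML1-ETO9a mean of 10.09 ± 0.34. The difference was 2.47 ± 0.37 (limma adjusted p = 0.0371), and 2.67 ± 0.35 without Booreana control replicate 2 (0.0193). Over the 8 settings with 1 pair left out it ran from 2.14 to 2.67, and the call was lost in 7 of them.

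The regions upstream of the start sites of Cited4 and Gfi1 are shown because these genes changed direction and because RUNX1 and c-Myb bind DNA. Each is the 250 bases before a RefSeq start in GRCm38.p6, read 5′ to 3′ on the gene's strand, with capitals for matches to AACNG, a core of the MYB site, or to TGTGGT, a core of the RUNX site, on either strand. Cited4 lies on the plus strand (chr4:120666313-120666562), and Gfi1 has 2 starts on the minus strand (chr5:107725806-107726055 and chr5:107724344-107724593).
Cited4: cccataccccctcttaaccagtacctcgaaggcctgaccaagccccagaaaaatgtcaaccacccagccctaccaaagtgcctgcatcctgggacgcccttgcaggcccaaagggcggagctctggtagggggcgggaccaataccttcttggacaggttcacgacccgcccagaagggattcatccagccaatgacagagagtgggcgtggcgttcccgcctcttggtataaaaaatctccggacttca
Gfi1, start 1: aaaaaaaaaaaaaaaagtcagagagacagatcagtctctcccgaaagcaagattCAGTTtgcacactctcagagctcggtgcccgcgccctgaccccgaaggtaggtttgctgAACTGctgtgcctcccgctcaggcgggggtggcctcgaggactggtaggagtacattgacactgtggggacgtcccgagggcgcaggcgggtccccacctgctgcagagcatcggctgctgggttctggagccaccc
Gfi1, start 2: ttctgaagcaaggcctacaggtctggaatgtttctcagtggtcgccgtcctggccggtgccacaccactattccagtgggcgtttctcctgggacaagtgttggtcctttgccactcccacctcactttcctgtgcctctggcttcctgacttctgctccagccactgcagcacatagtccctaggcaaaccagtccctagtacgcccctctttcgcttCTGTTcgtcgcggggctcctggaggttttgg
The Cited4 window held no match to either motif, and the Gfi1 windows held 2 and 1 matches to AACNG and none to TGTGGT. RefSeq windows were found for 18 of the 27 genes. TGTGGT occurred in 3 of their 20 windows against 14.0% of all 32851, and AACNG in 16 of 20 against 74.2%. A match is only a description of the letters.

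**Figure D2:**
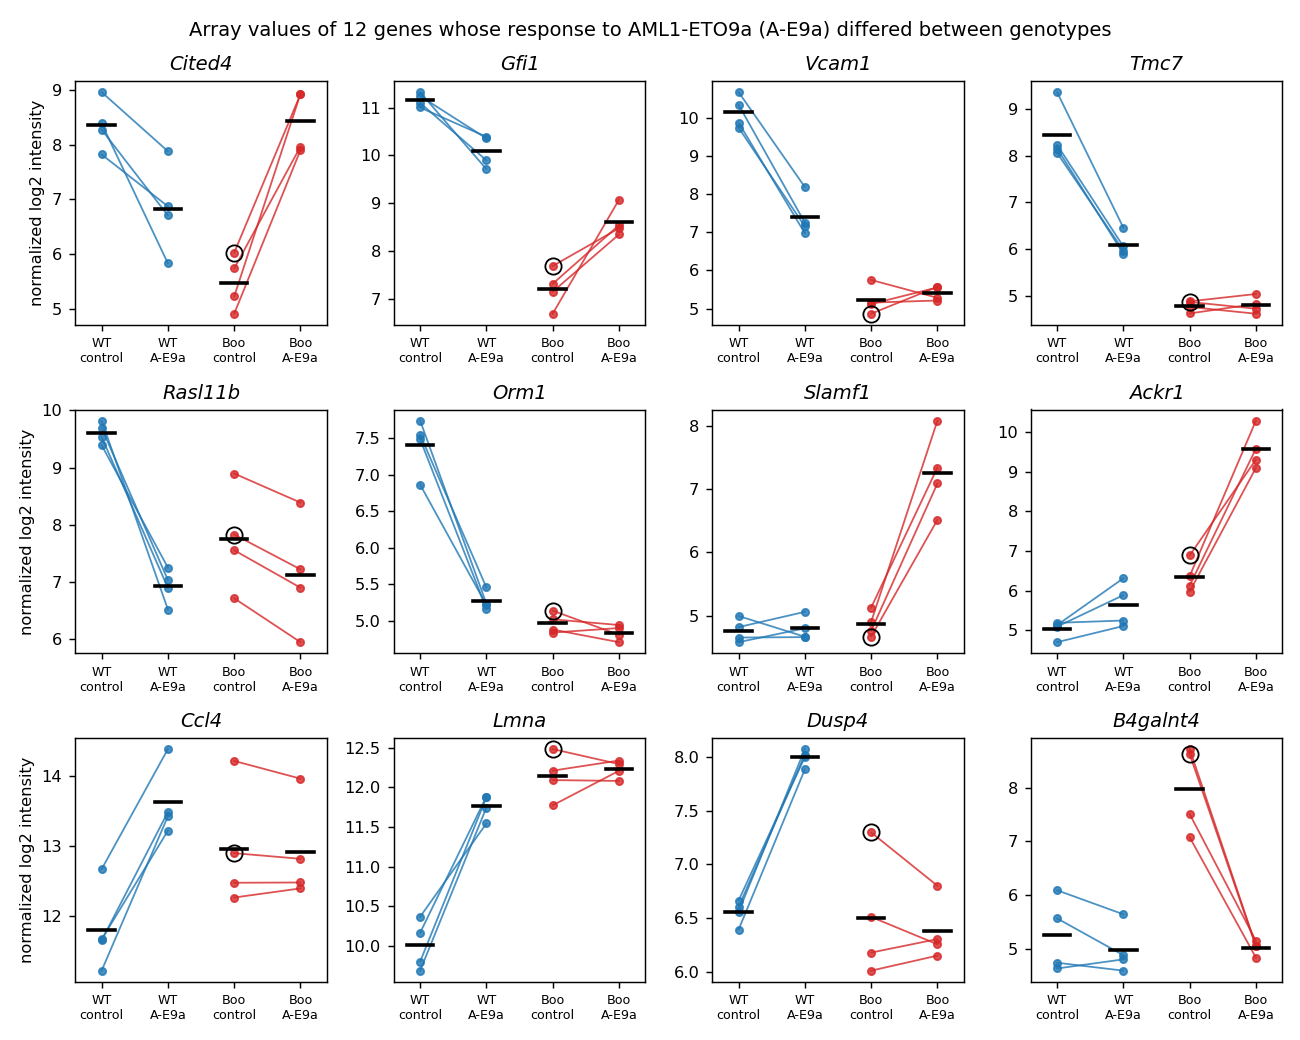
Normalized log2 intensity (y axis) of 12 genes on the 16 arrays, with lines joining the control and AML1-ETO9a (A-E9a) arrays of equal replicate number, wild-type (WT) in blue and Booreana (Boo) in red. Black bars are group means and the ringed point is Booreana control replicate 2; Cited4 and Gfi1 slope down in wild-type and up in Booreana cells, and each panel has its own axis.

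For 9 genes, AML1-ETO9a lowered the level in wild-type cells with no call in Booreana cells. Vcam1, an adhesion ligand for integrins, had 9.74, 9.87, 10.34 and 10.67 in wild-type control cells and 7.15, 6.97, 7.25 and 8.18 with the oncogene. The Booreana arrays had 5.12, 4.86, 5.75 and 5.15, then 5.55, 5.57, 5.28 and 5.21. The wild-type groups did not overlap, and every Booreana array was below every wild-type array. Vcam1 fell by 2.77 ± 0.20 in wild-type cells (limma adjusted p = 0.000113), and the Booreana response was 0.18 ± 0.20. The difference was 2.95 ± 0.29 (limma adjusted p = 0.00846), and 2.78 ± 0.27 without Booreana control replicate 2. Vcam1 was detected on 1 and 0 of 4 Booreana arrays, so a fall could hardly have been measured there.

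The same limit held for Tmc7, a transmembrane channel-like protein, and Orm1, the acute phase protein orosomucoid, which neutrophil granules also hold. Tmc7 had 8.23, 8.15, 8.06 and 9.36 in wild-type control cells and 6.05, 5.90, 5.97 and 6.46 with AML1-ETO9a, a fall of 2.36 ± 0.17 (limma adjusted p = 0.000102). It was detected on no Booreana array, where its values ran from 4.62 to 5.04. Orm1 was detected only in wild-type control cells, at 7.49, 6.87, 7.55 and 7.74, and was at least 3.31-fold lower with AML1-ETO9a (limma adjusted p = 0.000154). This bound sets the group against the lowest signal detected on each array. The differences were 2.38 ± 0.24 for Tmc7 and 2.01 ± 0.24 for Orm1 (limma adjusted p = 0.00846 and 0.0206), values that rest on Booreana signals not above background.

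The other 6 genes of this class were detected on all 16 arrays. Rasl11b, a Ras-like small GTPase, had 9.39, 9.69, 9.53 and 9.82 in wild-type control cells and 7.25, 7.03, 6.90 and 6.52 with AML1-ETO9a. In Booreana cells it had 7.56, 7.83, 8.90 and 6.72, then 6.90, 7.22, 8.39 and 5.95. All 8 pairs went down, but the fall was 2.68 ± 0.18 in wild-type cells (limma adjusted p = 9.27e-05) and the Booreana response was -0.63 ± 0.18 (0.100). Its difference was 2.05 ± 0.26 (limma adjusted p = 0.0235), and a further Rasl11b probe gave 2.10 ± 0.30 (0.0329). The spread between Booreana arrays was wide and common to both arms of a pair, and without the pairing the adjusted p was 0.407.

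Septin5, a cytoskeletal GTP-binding septin, went from a mean of 10.35 ± 0.45 (SD, n = 4) to 7.37 ± 0.95 in wild-type cells and from 8.04 ± 0.39 to 7.81 ± 0.92 in Booreana cells. Pip5k1b, a kinase that makes phosphatidylinositol bisphosphate, went from 9.19 ± 0.32 to 7.01 ± 0.69 and from 8.45 ± 0.71 to 8.88 ± 0.30. Cldn15, a claudin of tight junctions, went from 11.31 ± 0.32 to 9.07 ± 0.38 and from 9.10 ± 0.23 to 8.47 ± 0.40. In Septin5 and Cldn15 the Booreana control mean was thus already near the level that wild-type cells reached with the oncogene, whereas Pip5k1b started closer to the wild-type control. Gpc1, a cell-surface heparan sulphate proteoglycan, went from 12.81 ± 0.18 to 11.42 ± 0.44 in wild-type cells and had single Booreana values of 10.61 to 11.21 with the control vector and 10.78 to 11.55 with AML1-ETO9a. Itgb2l, an integrin beta chain-like gene of neutrophils, went from 11.60 ± 0.34 to 9.50 ± 0.66 and from 9.52 ± 1.42 to 9.42 ± 1.08. The differences of these 5 genes ran from 1.53 ± 0.25 for Gpc1 to 2.76 ± 0.43 for Septin5, with limma adjusted p from 0.0301 to 0.0471. A further Itgb2l probe had a larger difference, 2.87 ± 0.61, that did not pass (adjusted p = 0.110).

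Slamf1 and Ackr1 rose with AML1-ETO9a in Booreana cells and had no call in wild-type cells. Slamf1 encodes CD150, a receptor that marks haematopoietic stem cells. It had 7.34, 6.52, 7.09 and 8.09 in Booreana AML1-ETO9a cells and between 4.58 and 5.13 on the other 12 arrays, none of which detected it. The rise was at least 2.83-fold (limma adjusted p = 0.000677), and the fitted difference was 2.36 ± 0.30 (adjusted p = 0.0235) and 2.54 ± 0.28 without Booreana control replicate 2. Because the other groups were not above background, their order is not known, and the authors' values gave 0.51. The early progenitor genes did not share this difference as a set. Of 11 measured, 4 differences were positive and 7 negative, beside 3695 and 5138 of all 8833 genes. Their median was -0.13 against -0.08 over all genes, and Slamf1 alone passed with all arrays. Spink2 of this list had 2.59 ± 0.63 (limma adjusted p = 0.140) and passed without Booreana control replicate 2. In Booreana cells 3 of the 11 rose and 1 fell, against 2.22% and 1.8% of all genes. In wild-type cells 2 rose and 0 fell, against 4.97% and 3.49%.

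Ackr1 encodes the Duffy antigen, an atypical receptor that takes up chemokines. Its values were 6.13, 6.89, 5.98 and 6.37 in Booreana control cells and 9.58, 9.30, 9.10 and 10.29 with the oncogene. In wild-type cells they were 5.13, 4.70, 5.19 and 5.10, then 6.31, 5.11, 5.25 and 5.89. The Booreana AML1-ETO9a arrays stood above the other 12, by a rise of 3.23 ± 0.26 (limma adjusted p = 0.00055). The wild-type response was 0.61 ± 0.26 (adjusted p = 0.233), with 0 of 4 control arrays and 2 of 4 AML1-ETO9a arrays detecting the probe. The difference was 2.62 ± 0.36 (limma adjusted p = 0.0301) and 2.89 ± 0.31 without Booreana control replicate 2.

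In the lower direction, 11 genes rose in wild-type cells with no call in Booreana cells. Ccl4 encodes the chemokine MIP-1 beta. It had 11.64, 11.66, 11.21 and 12.67 in wild-type control cells and 13.49, 13.22, 13.43 and 14.39 with AML1-ETO9a. In Booreana cells it had 12.26, 12.90, 12.47 and 14.22, then 12.39, 12.82, 12.48 and 13.97. Every wild-type pair went up, and no Booreana pair moved by as much as any wild-type pair. Ccl4 rose by 1.84 ± 0.15 in wild-type cells (limma adjusted p = 0.000204) against a Booreana response of -0.05 ± 0.15. The difference was -1.89 ± 0.22 (limma adjusted p = 0.0202), a further probe gave -2.11 ± 0.29 (0.0301), and without the pairing the adjusted p was 0.510.

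Lmna, which encodes the nuclear lamins A and C, had 9.68, 10.16, 9.80 and 10.37 in wild-type control cells and 11.74, 11.88, 11.88 and 11.54 with AML1-ETO9a. The Booreana arrays had 12.21, 12.48, 11.77 and 12.09, then 12.34, 12.29, 12.21 and 12.08. The Booreana arrays of both vectors were at or above the range of wild-type AML1-ETO9a cells, apart from an overlap of 1 array. The difference was -1.67 ± 0.26 (limma adjusted p = 0.0441), and 4 further Lmna probes gave -1.11 to -1.52 without passing (adjusted p from 0.0841 to 0.290). Dusp4, a phosphatase that inactivates MAP kinases, started level in the genotypes, at 6.56 ± 0.12 and 6.50 ± 0.57 (SD, n = 4) with the control vector. It rose to 7.99 ± 0.08 in wild-type cells and was 6.38 ± 0.29 in Booreana cells with AML1-ETO9a, a difference of -1.56 ± 0.22 (limma adjusted p = 0.0301). Another Dusp4 probe gave -0.63 ± 0.31 (adjusted p = 0.403).

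Ccdc80, which encodes a secreted matrix protein, was detected on 0 of 4 wild-type control arrays and had 8.51, 6.81, 9.03 and 7.91 with AML1-ETO9a, a rise of at least 5.04-fold (limma adjusted p = 0.000329). Booreana control cells had 4.85, 5.05, 5.26 and 6.93, and Booreana cells with AML1-ETO9a had at most 7.63; it was detected on 1 and 2 of 4 arrays. The fitted difference of -2.81 ± 0.44 (limma adjusted p = 0.0441) therefore rests partly on background, and Booreana replicate 4 was the highest in both arms. Tarm1, an activating receptor of myeloid cells, went from 9.43 ± 0.59 to 11.47 ± 0.61 in wild-type cells and from 10.97 ± 0.23 to 11.27 ± 0.29 in Booreana cells. Clec4d, a C-type lectin receptor of myeloid cells, went from 10.96 ± 0.22 to 12.81 ± 0.39 and from 11.44 ± 0.24 to 11.79 ± 0.39. Tespa1, an adaptor of lymphocyte receptor signalling, went from 7.62 ± 0.37 to 9.39 ± 0.42 and from 10.40 ± 0.33 to 10.31 ± 0.18. With the control vector, Tarm1 and Tespa1 stood higher in Booreana than in wild-type cells, and wild-type Tespa1 with AML1-ETO9a remained below the Booreana control mean.

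The last 4 of the 11 genes were Atp13a2, a lysosomal polyamine transporter, Dmwd, Sh3pxd2b, a podosome adaptor, and Traf1, an adaptor of TNF receptors. Their wild-type rises ran from 1.08 ± 0.17 for Traf1 to 1.66 ± 0.18 for Dmwd, and their Booreana responses from -0.40 ± 0.17 to 0.04 ± 0.18. With the control vector, their Booreana means already stood above the wild-type means. These were 8.62 against 6.65 for Atp13a2, 10.60 against 8.83 for Dmwd, 9.63 against 8.76 for Sh3pxd2b and 8.71 against 6.37 for Traf1. For Atp13a2, Dmwd and Traf1 the Booreana control means also exceeded the wild-type AML1-ETO9a means of 8.28, 10.49 and 7.45. Traf1 had the largest adjusted p of the 27, with a difference of -1.48 ± 0.24 (limma adjusted p = 0.04998) that did not pass without Booreana control replicate 2 (0.0517). Mrc1, the macrophage mannose receptor, rose in both genotypes, by 3.18 ± 0.14 in wild-type and 1.88 ± 0.14 in Booreana cells (limma adjusted p = 6.4e-06 and 0.000486). Its Booreana arrays spread from 6.84 to 10.05 with the control vector and from 8.78 to 11.69 with AML1-ETO9a. The pairs nevertheless rose by similar amounts, so that the difference of -1.30 ± 0.20 passed with the pairing (adjusted p = 0.0426) and not without it (0.813).

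B4galnt4 and Pcolce2 fell with AML1-ETO9a in Booreana cells with no call in wild-type cells. B4galnt4, a glycosyltransferase, had 7.51, 8.63, 7.08 and 8.73 in Booreana control cells and was detected on no Booreana AML1-ETO9a array, a fall of at least 5.19-fold (limma adjusted p = 0.000711). Pcolce2, an enhancer of procollagen processing, had 8.63, 8.76, 8.20 and 7.20, then 6.71, 6.63, 6.42 and 5.62. In wild-type cells, B4galnt4 was detected on 1 and 0 of 4 arrays and Pcolce2 on 1 and 1, so a fall there could hardly have been measured. The fitted differences were -2.69 ± 0.38 and -2.01 ± 0.25 (limma adjusted p = 0.0329 and 0.0235). A further Pcolce2 probe gave -0.26 ± 0.40 (adjusted p = 0.798).

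Of 32 lists of related genes, 11 held at least 1 of the 27 genes, and 8 of the 27 were in a list, as were 455 of the 8833 tested genes. The lists were chosen with earlier results of these data known, so their counts and medians are descriptions only. All 17 measured genes of the neutrophil late granule list had a positive difference, against 3695 of all 8833 genes. The list holds granule proteins and other genes of maturing neutrophils, such as the transcription factor Cebpe. Their median difference was 1.07 against -0.08 over all genes, and 1.03 without Booreana control replicate 2. Orm1 alone passed the test for the difference. In wild-type cells 6 of the 17 fell and 0 rose, against 3.49% and 4.97% of all genes, and in Booreana cells 0 fell and 0 rose, against 1.8% and 2.22%. Camp, the cathelicidin precursor, fell by 1.81 ± 0.29 in wild-type cells (limma adjusted p = 0.00532), with a Booreana response of 0.35 ± 0.29 and a difference of 2.16 ± 0.41 (adjusted p = 0.0807). The mean level of the list was 12.45 to 12.87 on wild-type control arrays, 10.84 to 12.27 with AML1-ETO9a, 10.46 to 12.07 in Booreana control cells and 10.99 to 12.10 with AML1-ETO9a. The part of maturing neutrophils among the sorted cells in this was not tested.

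Inflammatory chemokines and cytokines went the other way, with 14 of 18 differences negative and a median of -0.89, where 5138 of all 8833 genes were negative. Ccl4 alone passed. In wild-type cells 7 rose and 0 fell, against 4.97% and 3.49% of all genes, and in Booreana cells 5 rose and 1 fell, against 2.22% and 1.8%. Cxcl1, a neutrophil attractant, rose in both genotypes, by at least 5.10-fold in wild-type cells and at least 1.39-fold in Booreana cells (limma adjusted p = 9.27e-05 and 0.0133). Neither control group was above background, and its fitted difference of -1.87 ± 0.32 missed the threshold (adjusted p = 0.0512). Ccl12, a monocyte attractant, rose by 4.19 ± 0.28 and 2.21 ± 0.28 (limma adjusted p = 9.27e-05 and 0.00381), with a difference of -1.99 ± 0.39 (0.0873). Of 17 genes of the NF-kB pathway and its feedback, 13 had a negative difference, beside the same 5138 of 8833 over all genes, and Traf1 alone passed. Their median was -0.30 against -0.08 over all genes. The lists of monocyte, mast cell and erythroid markers had medians of -0.21, 0.24 and 0.22, with Mrc1 as their single call.

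**Figure D3:**
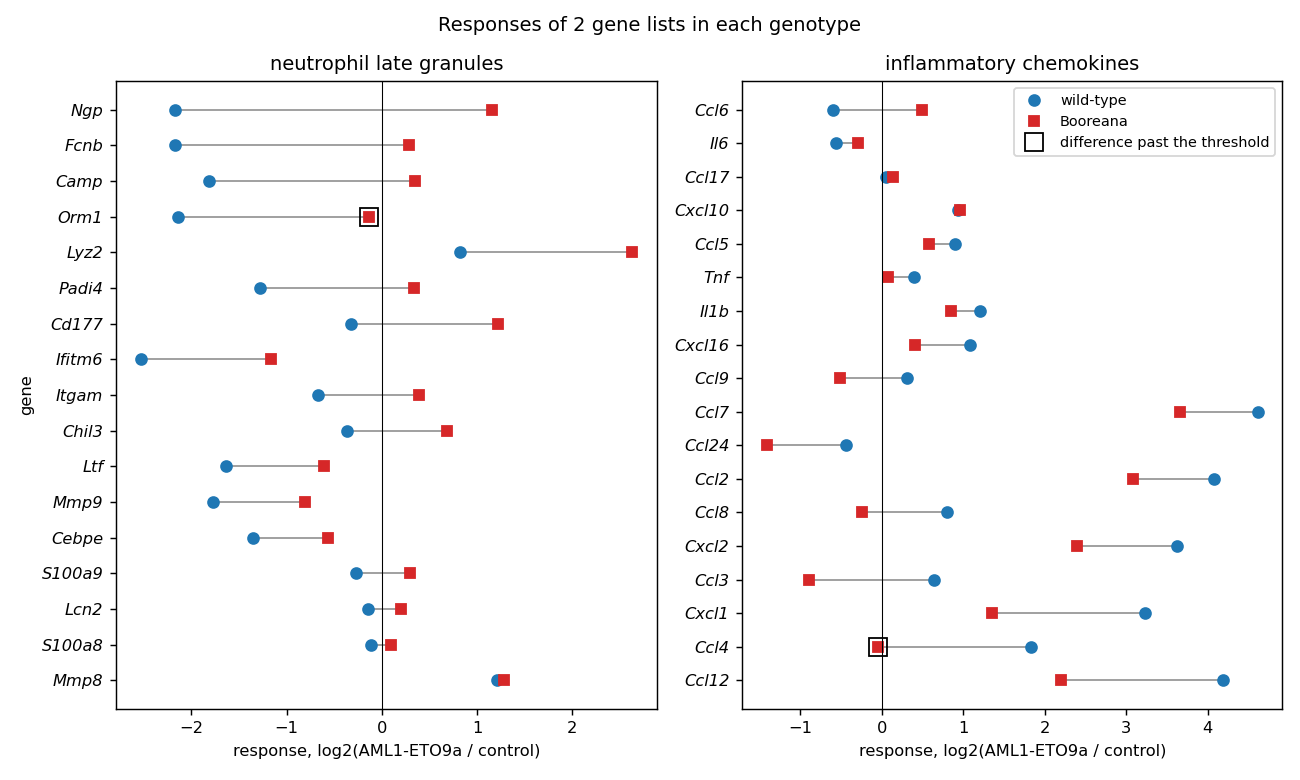
Response to AML1-ETO9a (log2, x axis) of each measured gene (y axis) of 2 lists, neutrophil late granules on the left and inflammatory chemokines on the right, in wild-type cells (circles) and Booreana cells (squares). The square frames mark Orm1 and Ccl4, the genes whose difference passed; on the left, all 17 Booreana points lie to the right of the wild-type points.

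Mean levels of markers of other cell types also differed between groups. The erythroid markers (9 of 18 measured) averaged 7.14 to 8.21 and 7.41 to 7.75 in wild-type control and AML1-ETO9a cells, and 9.05 to 9.52 and 9.36 to 9.61 in Booreana cells. The mast cell and basophil markers (18 of 22 measured) averaged 8.56 to 9.71 and 8.52 to 9.44 in wild-type cells, and 9.55 to 10.04 and 9.75 to 11.55 in Booreana cells. The erythroid ranges did not overlap between genotypes with either vector, and this was not particular to them. The same held for the lists of megakaryocytes, MHC class II and dendritic cells, and early progenitors, all higher in Booreana cells. The mast cell ranges overlapped with the control vector, and the other lists overlapped with the control vector, AML1-ETO9a or both. The part of any of these lists in the differences was not tested. Of the 18 mast cell and basophil genes, 4 rose and 4 fell in Booreana cells, against 2.22% and 1.8% of all genes. In wild-type cells 3 rose and 4 fell, against 4.97% and 3.49%. Their differences were positive for 11 and negative for 7, beside 3695 and 5138 of all 8833 genes, with no call. The largest difference of the list was that of Tph1, a serotonin-synthesis enzyme of mast cells. It was detected on 4 of 4 Booreana AML1-ETO9a arrays, at 8.65, 9.84, 7.23 and 12.14, and on 0 of 4 Booreana control arrays. It rose at least 13.1-fold (limma adjusted p = 0.00551). Its fitted difference of 4.30 ± 0.88 did not pass (adjusted p = 0.0962).

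The genes of c-Myb, p300 and RUNX1 themselves gave no call for the difference. Myb had a difference of -0.65 ± 0.45 (limma adjusted p = 0.531) with its brightest probe, detected on 9 of 16 arrays. A further Myb probe, detected on 8 of 16, gave 0.19 ± 0.42 (limma adjusted p = 0.858). Ep300, which encodes p300, had 0.65 ± 0.34 (0.432). Crebbp had no named probe. The Runx1 probe rose by 1.33 ± 0.15 in wild-type cells (limma adjusted p = 0.000659) with a Booreana response of 0.45 ± 0.15 and a difference of -0.88 ± 0.21 (0.134). Whether this probe matches the RUNX1 part of the transgene is not known here, so its rise need not come from the mouse gene. Runx1t1 rose at least 1.94-fold in Booreana cells (limma adjusted p = 0.00173), with a difference at the edge of the threshold (0.0501, and 0.0494 without Booreana control replicate 2). Ch25h, a cholesterol hydroxylase, rose by 5.23 ± 0.31 on the log2 scale in wild-type cells and at least 14-fold in Booreana cells (limma adjusted p = 7.54e-05 and 0.000309). The Booreana value is a lower bound, and the fitted difference of -0.66 ± 0.44 did not pass (limma adjusted p = 0.527). Elane, neutrophil elastase, fell by 2.25 ± 0.17 in wild-type cells and fell by 2.02 ± 0.17 in Booreana cells (limma adjusted p = 0.000115 and 0.000567). Elane's difference of 0.23 ± 0.24 did not pass (limma adjusted p = 0.684), which does not show that the responses were equal. For Mpo, the myeloperoxidase of primary granules, the brightest probe gave -1.41 ± 0.28 (limma adjusted p = 0.0915), and the other probes gave 1.87 ± 0.38 (0.0915, and 0.0494 without Booreana control replicate 2) and 0.38 ± 0.48 (0.739). The probe with 1.87 was detected on 3 of 4 Booreana control and 1 of 4 Booreana AML1-ETO9a arrays, so its Booreana response was limited by background and no direction is read from it.

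The remaining calls were probes that do not stand for their gene or carry no name. Probes of Gca, a calcium-binding protein of granulocytes, Tnfsf13b, the B cell factor BAFF, and Wipi1, an autophagy protein, had differences of 2.54 ± 0.30, 1.84 ± 0.24 and 1.93 ± 0.31, each after a wild-type fall. A probe of Cd86, a T cell co-stimulator, had -1.28 ± 0.20. The smallest adjusted p of all (0.00103, limma) belonged to the unnamed probe ILMN_2879102, which was at least 9.23-fold lower with AML1-ETO9a in wild-type cells, where 0 of 4 arrays then detected it, and had a Booreana response of -0.30 ± 0.16.

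Booreana control replicate 2 changed which further genes passed more than it changed the 27. In the paired fit its removal also takes its partner out of the comparison. The difference became larger for 11 of the 27 genes and smaller for 16, at 0.896 to 1.13 times the value with all arrays. These genes had passed in the fit that includes that array, which leaves little room for genes that it shifted strongly. Their small shifts therefore do not show that calls are insensitive to the array. Over all probes the median standard error went from 0.303 to 0.274 although a pair was lost, and 199 of 12760 probes (1.56%) shifted by more than 1 on the log2 scale. The 24 calls gained included Ccl3, a chemokine, with -1.53 ± 0.64 (limma adjusted p = 0.346) before and -2.29 ± 0.22 (0.00795) after, and Spink2, a protease inhibitor expressed in progenitors, with 2.59 ± 0.63 (0.140) and 3.25 ± 0.38 (0.0123). These genes were chosen here after their values were seen. On that array Ccl3 was at 9.47 against 11.37, 11.88 and 12.77 on the other Booreana control arrays, and Tmed3, a protein of the secretory pathway, was at 5.23 against 10.54, 10.80 and 10.61. Tmed3 went from 2.52 ± 1.12 (limma adjusted p = 0.368) to 1.14 ± 0.19 (0.0490), so here a smaller difference passed. When the other 15 arrays were also normalized without it, 46 probes were called, 29 of them among the 37.

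**Figure D4:**
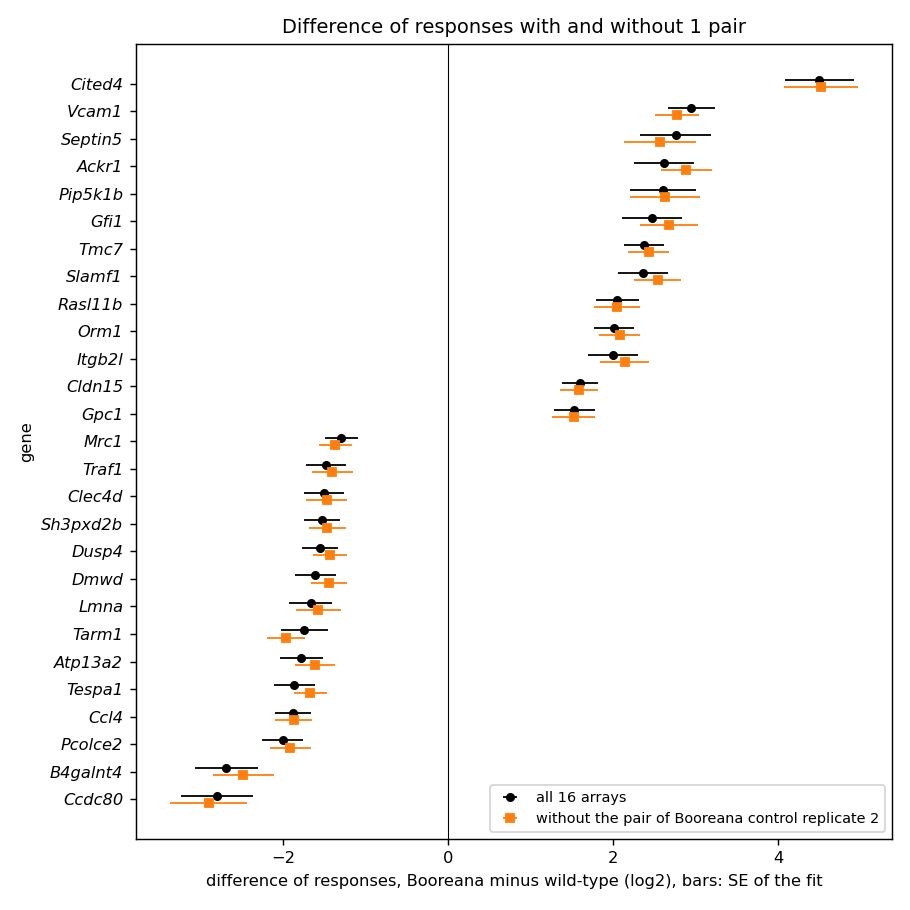
Difference of responses, Booreana minus wild-type (log2, x axis), of the 27 genes (y axis) with all 16 arrays (black circles) and without the pair of Booreana control replicate 2 (orange squares); bars are the standard error of the fit. Each gene keeps its side of 0, which follows from pair differences that do not overlap between genotypes. Values run from 4.50 for Cited4 to -2.81 for Ccdc80 with all arrays.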

How the data were processed

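Total RNA of 16 samples was measured on Illumina BeadChips. The authors deposited non-normalized probe intensity values with a detection p-value per probe, which are used here, and a log2 table for which the submitters' processing notes name lumi. In that table each column matched its array best (Spearman 1), with a median of 8.34 on the log2 scale. The sources used here do not state how it was normalized. From the deposited intensities, limma 3.58.1 in R 4.3.3 computed neqc (normexp background correction from detection p-values, offset 16, quantile normalization and log2). Of 25697 probes, the 12760 whose detection p fell below 0.05 on 4 or more arrays entered the fit. The number of arrays limits the precision.

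The design was a linear model with a block for each of 8 pairs and a response per genotype, tested with eBayes and Benjamini-Hochberg adjustment over all tested probes, leaving 6 residual degrees of freedom. The pairing comes from equal replicate numbers in the labels, which do not say that equal numbers share a mouse or culture. Deviations of same-numbered arrays from their group means correlated at 0.167 to 0.708 in the 8 pairs. Wild-type control replicate 3, with the lowest value of 0.167, matched wild-type AML1-ETO9a replicate 2 best, so the correlations do not bear out that pair. A gene was represented by its brightest probe, and 23978 probes had 1 symbol, 0 several and 1719 none.

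Named genes were called genes whose pair differences did not overlap between genotypes (up to 20 per direction), up to 4 members of each list with the smallest adjusted p, and fixed genes such as Myb and Runx1. Members and lists were chosen with earlier results of these data known. The code was tested on simulated data. Alternatives covered the block, array weights, background correction, normalization, filters, variance model, left-out pairs and the deposited log2 values. The arrays normalized without Booreana control replicate 2 were an alternative chosen after seeing the data.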

Additional observations from a re-analysis of the deposited data

Results flagged for a closer look

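The response to AML1-ETO9a differed between Booreana and wild-type cells, by the paired limma test of the difference itself, for 27 genes. The positive differences (Booreana minus wild-type, log2) were 4.50 for Cited4, 2.95 for Vcam1, 2.76 for Septin5, 2.62 for Ackr1, 2.60 for Pip5k1b, 2.47 for Gfi1, 2.38 for Tmc7, 2.36 for Slamf1, 2.05 for Rasl11b, 2.01 for Orm1, 2.00 for Itgb2l, 1.60 for Cldn15 and 1.53 for Gpc1. The negative differences were -2.81 for Ccdc80, -2.69 for B4galnt4, -2.01 for Pcolce2, -1.89 for Ccl4, -1.87 for Tespa1, -1.78 for Atp13a2, -1.74 for Tarm1, -1.67 for Lmna, -1.62 for Dmwd, -1.56 for Dusp4, -1.53 for Sh3pxd2b, -1.51 for Clec4d, -1.48 for Traf1 and -1.30 for Mrc1.

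Among the 108 groups of 4 arrays of these genes, 3 held an array far from the rest, where chance alone gives about 5%. Wild-type AML1-ETO9a replicate 4 was low for Septin5 at 5.95 and high for Traf1 at 7.77, and wild-type control replicate 4 was high for Tmc7 at 9.36 (normalized log2 intensity).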

How the results depend on the processing

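The sign of all 27 gene differences was the same in each of the 20 alternative settings, whereas the number of calls was not. Leaving out a pair could not reverse a sign, because the pair differences of these genes do not overlap between genotypes. Other blocks, filters or variance models on all arrays keep the same estimates, so the sign is no separate support there. Against 37 calls with all arrays and the pairing, the difference had 11 calls without the replicate block (8 of the 27 genes kept their call), 14 without the block and without Booreana control replicate 2, and 86 with the block as a random effect (correlation 0.35). It had 202 with array weights, where that array had a weight of 0.129, 98 without background correction, 77 with an offset of 50, 22 without normalization between arrays (17 higher and 5 lower against 19 and 18), 97 with the authors' processed values and 83 with trend and robust variance. Leaving out 1 pair at a time gave 1 to 60 calls, the highest without Booreana control replicate 2 and the lowest without Booreana replicate 1, where none of the 27 genes kept its call. A left-out pair leaves fewer residual degrees of freedom. Detection on at least 1 array gave 36 calls and no filter 37.

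For the wild-type response, 959 calls became 551 without the replicate block, 1772 with array weights, 1475 with arrays normalized without Booreana control replicate 2, and 449 to 1491 with 1 pair left out. Booreana arrays enter this count only through normalization and the shared spread. For the Booreana response, 454 calls became 210 without the replicate block, 227 without the block and that array, 828 with array weights, 690 without background correction, and 149 to 463 with 1 pair left out. Differences shrank by over 1.5 times for 18 of the 27 genes with the authors' processed values and for 12 without background correction, among them Slamf1 (0.51 and 0.87 against 2.36) and Orm1 (0.43 and 0.69 against 2.01). Where a group was not above background, the size of a difference is limited by signal over background.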
